A study of Mus musculus with 4 samples.

Results

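Collecting duct principal cells formed cluster 13 of the authors' 23 clusters of kidney nuclei, and they were taken as the 4 columns of that cluster, 1 per mouse, out of 92 columns in all. The 4 mice were a Control mouse, a Control mouse given aristolochic acid I (AAI), an hKLF6 OE mouse, and an hKLF6 OE mouse given AAI. Control mice carried only the TRE-hKLF6 transgene. The hKLF6 OE mice also carried CAG-rtTA, which drives the human KLF6 transgene in every cell type and not in principal cells alone. All 4 mice were male, of mixed background, and ate doxycycline, which switches the transgene on, for a week. The uninjured mice are labelled as having had no treatment. The injured mice received a single AAI injection and were killed a day later, and nuclei came from kidney cortex. Each value below is the mean over the nuclei of 1 cluster and 1 mouse of counts scaled to 10000 per nucleus, called counts per 10000. Values for the 4 mice are given in the order Control, Control AAI, OE and OE AAI.

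With 1 mouse per condition no test was made. How far the 2 pairs of a comparison differ mixes the spread between mice with any difference in response between the pairs. Differences are on the log2(value + 1) scale, which understates the change of low genes. Between conditions, a difference was counted, or passed the threshold, when it was at least 0.5 in the same direction in both pairs of mice: AAI was compared within Control and within OE, and genotype without and with AAI. The 2 pairs of a comparison shared no mouse, but the AAI and the genotype comparisons used the same 4 mice. Counted genes were picked for a difference in the same direction in each pair or mouse. A lack of overlap between groups in such genes is thus partly built in, and its share over all genes is not given. The number of nuclei and the depth behind each column were not in the table. The share of genes listed at 0 was 38.5%, 36.5%, 39.5% and 41.1% in the 4 principal cell columns, so the OE AAI column was the sparsest.

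Principal cells are the sodium-absorbing and water-absorbing cells of the collecting duct. Vasopressin acts on its receptor Avpr2 to raise cyclic AMP, which moves the water channel Aqp2 to the luminal membrane, and water leaves through Aqp3 and Aqp4 on the other side. Aldosterone acts on the mineralocorticoid receptor Nr3c2, which Hsd11b2 shields from glucocorticoids, and raises sodium entry through the epithelial sodium channel, built from Scnn1a, Scnn1b and Scnn1g. The connecting tubule, just upstream, shares the sodium channel and adds calcium transport through Trpv5, Calb1 and Slc8a1.

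The reference sequences of 3 genes with their highest mean level in principal cells, Aqp2, Aqp3 and Fxyd4, are shown for the 250 bases before their annotated start, from RefSeq on GRCm38.p6, since these genes define the cluster. Aqp2 is on the plus strand at chr15:99578806-99579055, Aqp3 on the minus strand at chr4:41098184-41098433, and Fxyd4 on the minus strand at chr6:117937336-117937585. Capitals mark matches on either strand to GATAA, the core of a GATA site, and to TGACG, the core of a cyclic AMP response element.
Aqp2: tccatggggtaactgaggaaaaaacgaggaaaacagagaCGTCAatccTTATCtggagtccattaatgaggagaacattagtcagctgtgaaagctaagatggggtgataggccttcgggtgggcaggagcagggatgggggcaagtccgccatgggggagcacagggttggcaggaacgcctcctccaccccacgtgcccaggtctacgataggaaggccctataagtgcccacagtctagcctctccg
Aqp3: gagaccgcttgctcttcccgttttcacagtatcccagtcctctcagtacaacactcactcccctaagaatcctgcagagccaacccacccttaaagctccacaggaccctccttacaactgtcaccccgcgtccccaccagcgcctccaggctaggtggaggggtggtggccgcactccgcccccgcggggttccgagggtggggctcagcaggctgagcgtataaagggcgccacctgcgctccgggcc
Fxyd4: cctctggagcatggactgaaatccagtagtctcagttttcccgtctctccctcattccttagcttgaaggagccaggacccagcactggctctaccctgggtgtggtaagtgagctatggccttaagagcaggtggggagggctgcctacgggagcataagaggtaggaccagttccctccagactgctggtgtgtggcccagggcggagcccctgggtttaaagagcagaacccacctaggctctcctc
The Aqp2 window held 1 match to each motif, a few bases apart, and the Aqp3 and Fxyd4 windows held none. Among 32851 promoters of the same length, 22.6% held GATAA and 17.8% held TGACG, so neither match is rare.

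The columns of cluster 13 carried principal cell markers in every mouse. Aqp2 was at 6.35, 5.47, 12.05 and 3.59 counts per 10000, against 1.46, 1.59, 1.39 and 1.10 in the connecting tubule. All 4 principal cell values were above all 4 connecting tubule values. Aqp3 was at 2.80, 3.04, 6.91 and 2.73, and its mean of 3.87 compared with 1.04 in the connecting tubule, the next highest cluster. Fxyd4, a small regulator of the sodium pump, was at 1.54, 2.59, 2.31 and 1.97, with no other cluster above a mean of 0.17. Hsd11b2 was at 6.07, 5.09, 7.35 and 5.50, all 4 values above the connecting tubule mean of 3.32 in the connecting tubule. Avpr2 was low, at 0.534, 0.347, 0.247 and 0.205, but its mean was still the highest of the 23 clusters.

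The sodium channel did not separate principal cells from the connecting tubule. Scnn1g, given as a marker of the cluster, was at 4.84, 4.31, 3.85 and 3.96 in principal cells, and its mean of 4.24 was below the 5.38 of the connecting tubule. Scnn1b had means of 8.66 and 8.02, and Scnn1a 1.75 and 2.04. Nr3c2 had means of 21.5 and 26.4, the second highest and the highest of all clusters. Aqp4 had a mean of 0.804, just under the 0.813 of PT-S3-2, a proximal tubule cluster of segment S3. The name of the cluster thus rested on Aqp2, Aqp3, Fxyd4 and Hsd11b2, not on Scnn1g.

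Markers of other cell types were checked in the same columns. Summed over 8 genes, principal cell markers reached 32.4, 30.1, 41.5 and 27.5 counts per 10000, the highest of the 23 clusters. The 11 intercalated cell markers summed to 1.80 to 3.08, against a mean of 161 in the highest intercalated cluster, and the defining genes Slc26a4 and Foxi1 had means of 0.275 and 0.0157. The 4 podocyte, 4 endothelial, 4 macrophage and 4 mesangial or stromal markers summed to at most 0.781, 1.29, 0.310 and 0.169, and Col1a1 was at 0 in all 4 columns. The 2 thin limb and inner medullary markers summed to 0.731 to 1.45, with Slc14a2 at 0. The 3 urothelium markers were at 0 in all 4 columns. The 3 distal convoluted tubule markers summed to 3.102 to 3.70 and the 3 thick ascending limb markers to 8.67 to 11.21, against 186 and 243 in their own clusters.

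Proximal tubule transcripts were the exception. The 10 proximal tubule markers, none of them at 0, summed to 131, 85.5, 143 and 66.2 in principal cells. Kap, an androgen-regulated proximal tubule transcript, made up most of that sum, at 77.4, 53.7, 103 and 42.7. The connecting tubule held almost as much, with sums of 114, 75.7, 131 and 57.6, and the lowest of the 23 cluster means was 76.8. Both sets of columns were lower in the AAI mice than in the others.

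**Figure D1:**
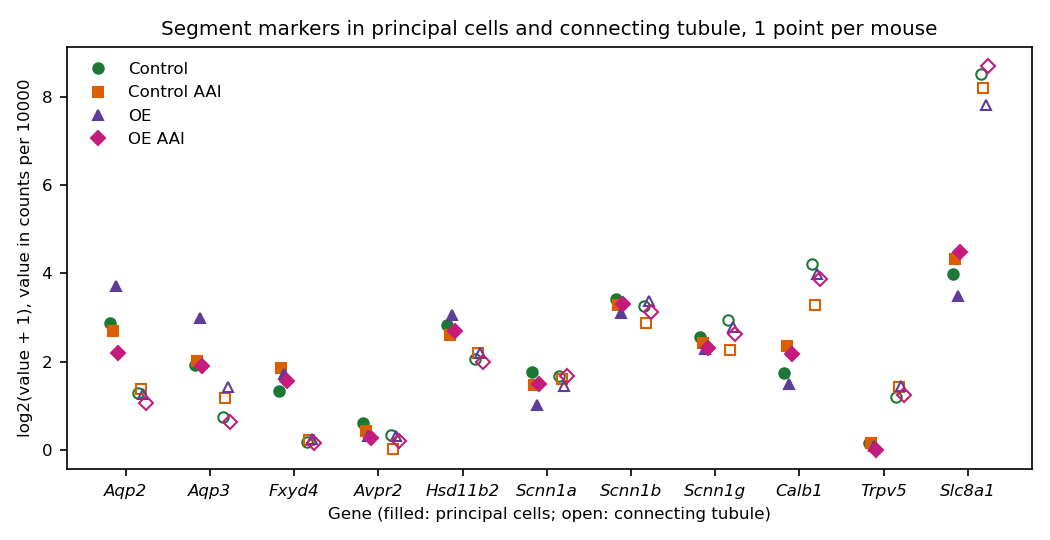
The plot of segment markers gives, for 11 genes on the x axis, the log2(value + 1) of each mouse on the y axis, with filled points for principal cells and open points for the connecting tubule. Aqp2, Aqp3 and Fxyd4 lie higher in principal cells in each mouse, Scnn1b and Scnn1g lie at similar levels in both, and Slc8a1 and Trpv5 lie far higher in the connecting tubule.

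Against all 22 other clusters, 8 genes were higher in principal cells by at least 1 on the log2 scale than in the highest other cluster of the same mouse, in 4 of 4 mice, out of 7246 genes with a value of at least 0.5 (0.110%). The clusters were made from these same expression values, so this is a description of the cluster. The widest margin was that of Mgat4c, a member of the N-acetylglucosaminyltransferase family, at 12.9, 26.3, 10.3 and 24.0 counts per 10000 against no more than 2.52 in any other cluster of any mouse. Its smallest margin was 2.70, compared with 1.13 for Aqp2. Dab1, a cytoplasmic adaptor of the reelin pathway, was at 6.35, 3.97, 7.48 and 6.23, with a smallest margin of 1.87. On this scale Mgat4c and Dab1 had wider smallest margins than Aqp2, Aqp3 and Fxyd4. The scale understates low genes, and the order depends on it. By mean, Dab1 was at 6.01 against 0.542 in the next cluster, and Fxyd4 at 2.10 against 0.167.

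Other genes of this group were Il1rapl1, an interleukin 1 receptor-like protein known from synapses (smallest margin 1.35), the voltage-gated potassium channel Kcnh5 (1.32), the collagen Col26a1 (1.32) and Fxyd4 (1.06). Below the threshold came Myh10, a nonmuscle myosin heavy chain, at 0.91, Mpped2 at 0.87 and Aqp3 at 0.84. The connecting tubule was the next highest cluster by mean for Aqp2, Kcnh5, Col26a1, Myh10, Mpped2 and Aqp3, but not for Mgat4c or Il1rapl1, where IC-B-2, an intercalated cluster, came next. Further genes of the 20 widest margins were Lypd6, Fam110b, Dip2c, Pde8b, Fanca, Spock3, Camkk2 and Ccser1, with smallest margins from 0.56 to 0.79.

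Among the lists, the transcription factors of the distal nephron gave a further view of identity. Gata3 had its highest mean of all clusters in principal cells, at 2.94 against 1.95 in the connecting tubule. Gata2, Tfap2a, Ehf, Grhl2, Pax2 and Sim1 were likewise highest in principal cells by mean, at 1.26, 1.10, 1.94, 2.04, 10.98 and 8.39. These factors were picked from a list of 31, and the number highest in other clusters is not given. None was among the 8 genes that passed the threshold over every other cluster, and the smallest margin of Gata3 was 0.20. Tfcp2l1, which acts in both principal and intercalated cells, was higher in intercalated clusters, at 22.1 in IC-A against 11.8. In the Notch pathway, which is known to favour principal over intercalated cell fate, the target Hes1 and the ubiquitin ligase Mib1 were highest in principal cells by mean, at 3.17 and 3.45. The ligand Jag1 had a mean of 0.182, against 2.41 in IC-B-2.

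The connecting tubule was the cluster most like principal cells. Across 8112 genes, the Pearson correlation of log2(value + 1) was 0.910, 0.888, 0.896 and 0.899 in the 4 mice, against a mean over mice of 0.812 for the next cluster, the distal convoluted tubule. Genes are not independent, and both columns of a pair came from 1 mouse. Of 3565 genes compared, 28 were higher in principal cells by at least 1 in 4 of 4 mice (0.785%) and 27 were lower (0.757%).

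Among the genes higher in principal cells, Erbb4, the receptor for neuregulins, was at 12.1, 21.8, 14.6 and 22.2 against 3.00, 4.63, 3.58 and 4.39 in the connecting tubule. Egfr was at 3.81, 4.58, 2.78 and 4.63 against 1.17, 0.997, 0.853 and 1.36. The principal cell values of both receptors lay clear of the connecting tubule values. Nfia, Tcf7l1 and Sox5, all DNA-binding proteins, had means of 7.25, 2.90 and 3.67 against 1.42, 0.340 and 1.16. Of the phosphodiesterases, Pde1c had a mean of 4.84 against 0.814 and Pde8b one of 6.88 against 2.09. Cyp7b1, an oxysterol hydroxylase, had a mean of 5.19 against 0.847. Rbms3, Tmtc2, Rbfox1, Ralyl, Kctd8 and Samd12 completed the 15 widest differences together with genes named above.

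The genes lower in principal cells were led by Slc8a1, the sodium-calcium exchanger, at 14.8, 19.1, 10.1 and 21.2 against 366, 292, 223 and 412 in the connecting tubule. Wnk1, a kinase of distal salt transport, came next at 2.65, 3.56, 3.71 and 4.54 against 43.9, 37.5, 47.1 and 54.2. Neither gene overlapped between the 2 clusters. In the distal calcium transport list, 5 of 16 genes were lower (Slc8a1, Trpv5, Atp2b4, the vitamin D receptor Vdr, and Trpm6) and none was higher. Over all genes compared, 0.757% were lower and 0.785% higher. Vdr had a mean of 1.52 against 11.16, and Kl, the FGF23 co-receptor klotho, 1.79 against 12.02. Klhl3, which targets WNK kinases for degradation, had a mean of 1.00 against 6.06, and Slc12a3, the thiazide-sensitive cotransporter, 2.82 against 11.5. Calb1 had a mean of 2.93 against 13.7 and missed the threshold in at least 1 mouse. Sgms2, Slc2a9, Cyp2j11, Tmem52b, Kng2, Dach1, Abca13, Shank2 and Tmem72 made up the rest of the 15 widest differences.

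**Figure D2:**
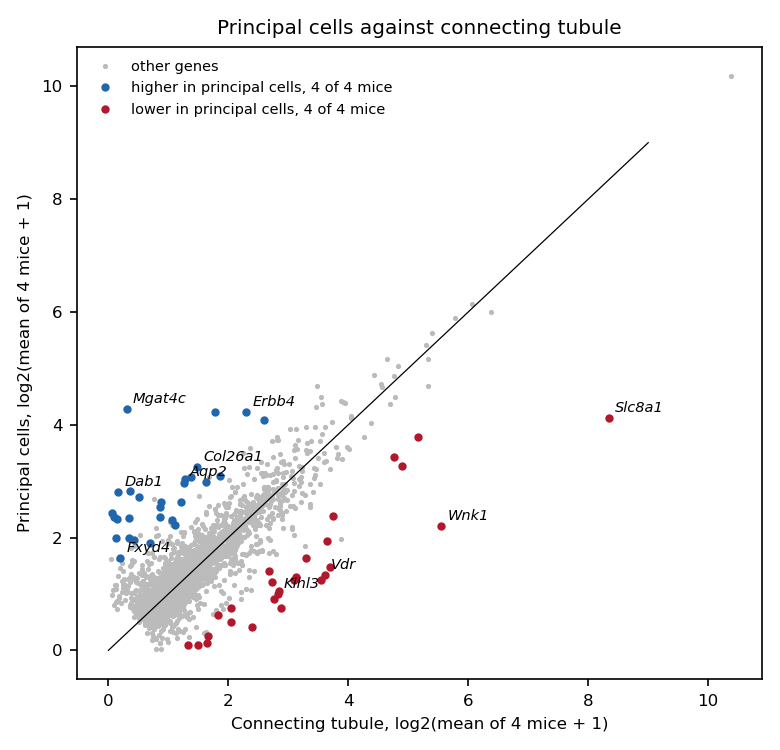
The scatter plots the mean of 4 mice in principal cells (y axis) against the connecting tubule (x axis), both as log2(mean + 1), 1 point per gene, with the line of equality. The 28 blue genes lie above the line, led by Mgat4c, and the 27 red genes lie below it, with Slc8a1 and Wnk1 farthest out.

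The AAI comparison asked what a day of toxin exposure did to cells that are not its main target, since AAI chiefly damages the proximal tubule. Of 4088 genes compared, 48 were higher in both AAI mice than in their partners (1.17%) and 54 were lower (1.32%), while 17 differed by at least 0.5 in opposite directions. The medians over all genes compared were 0.01 and 0.07. In the other 22 clusters the share of higher genes ran from 0.449% to 18.9%, the most in InjuredPT-A, an injured proximal tubule cluster, and 12 clusters had a smaller share than principal cells. The paper found InjuredPT-A almost only in AAI mice. There, 62.6% and 40.8% of genes were at 0 in the Control and OE columns, against 22.5% and 22.2% with AAI. The part of sparse columns in the order of clusters was not tested. The connecting tubule had 23 higher and 39 lower genes, and it shared 11 and 23 of them with principal cells, which made 22.9% and 42.6% of the principal cell genes and 47.8% and 59.0% of the connecting tubule genes.

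Of the listed water and sodium handling genes, only Fxyd2 was counted. None of the 34 genes of the water transport and vasopressin list was counted in either direction, and medians over its 23 genes compared were 0.02 and 0.01. Of the 30 sodium channel and aldosterone genes in the table, 28 were compared. Only Fxyd2, the gamma subunit of the sodium pump, was counted, as lower. None of the 8 principal cell markers was counted, 7 of which were compared, with medians of -0.14 and -0.36. Over all genes compared, 1.17% were higher and 1.32% lower, so lists this short cannot show a lack of response. Aqp2 differed by -0.19 in the Control pair and by -1.51 in the OE pair, and Aqp3 by 0.09 and -1.08. In both cases the uninjured OE mouse stood above the other 3, at 12.05 and 6.91. Scnn1g differed by -0.14 and 0.03, and Hsd11b2 by -0.22 and -0.36.

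Immediate early genes are those that cells transcribe within minutes of a stimulus. Of the 21 listed, 9 were compared, 3 were counted as higher in the AAI mice and none was lower. The shares over all genes compared were 1.17% higher and 1.32% lower. Egr1 was at 1.21, 5.99, 0.364 and 6.03 counts per 10000, differences of 1.66 and 2.37. Junb was at 0.425, 2.03, 0.152 and 1.45, a difference of 1.09 in each pair. Fos was listed at 0 in both uninjured mice and at 0.774 and 1.35 in the AAI mice. In all 3 genes both AAI values were above both uninjured values. Without the filter, 11 of 21 were above 0 in both pairs and 2 were below, against 3285 and 3225 of all 19609 genes, many of which are listed at 0. Genes silent without AAI pass the filter only where they are high, so the medians of those compared, 0.48 and 0.62, were 0.09 and 0.16 without it. Ier3 differed by 0.48 and 0.44, and Klf6 itself, at 0.454, 1.01, 0.303 and 1.00, by 0.47 and 0.62, just short of the threshold in the Control pair. Egr1 also passed the threshold in 18 of the 22 other clusters and Fos in 2, while differences above 0 in both pairs were seen in 22 other clusters for Egr1 and in 21 for Fos.

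Of the 32 targets of p53, the transcription factor of the DNA damage response, 4 were counted as higher, 8 were compared and none was lower. The shares over all genes compared were 1.17% higher and 1.32% lower. Mdm2, the ligase that degrades p53, was at 0.467, 1.11, 0.926 and 1.99. Ccng1, a cyclin, was at 0.0736, 0.787, 0.291 and 1.79. Both were higher with AAI within each genotype, but for Mdm2 the Control AAI mouse was close to the uninjured OE mouse. Trp53inp1, a p53-induced stress protein, was at 0.366, 1.08, 0.337 and 1.09, and Btg2, an antiproliferative gene, at 0.183, 0.756, 0.470 and 1.99. Without the filter, 15 of 32 were above 0 in both pairs and 1 was below, beside the 3285 and 3225 of all 19609 genes, and the medians were 0.13 and 0.11. Ccng1, Trp53inp1 and Btg2 were below 0.5 in both uninjured mice and so passed the filter only through the AAI mice. Cdkn1a, the cell cycle inhibitor p21, was listed at 0 in both uninjured mice and at 0.567 and 0.491 with AAI. These genes were not particular to principal cells in the counts, since Mdm2, Ccng1, Trp53inp1 and Btg2 also passed the threshold in 13, 15, 17 and 11 other clusters.

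Erbb4 was higher by 0.80 and 0.57, with both AAI values above both uninjured values, and it passed the threshold in no other cluster. Its differences were above 0 in both pairs in 6 other clusters, among them the connecting tubule with 0.49 and 0.23. Its ligand Nrg1 was at 1.13, 2.56, 1.89 and 3.88, differences of 0.74 and 0.75, and passed the threshold in 6 other clusters. The mean of Nrg1 in the normal proximal tubule clusters without AAI was 4.65, above its uninjured principal cell values. The part of proximal tubule transcripts in its differences was not tested. Of the 13 EGF family genes in the table, 7 were compared, Erbb4 and Nrg1 were counted as higher and none as lower. Over all genes compared, 1.17% were higher and 1.32% lower. Without the filter, 7 of the 13 were above 0 in both pairs and 1 was below, beside 3285 and 3225 of all 19609 genes. Hes1 was at 2.74, 5.14, 1.47 and 3.33, differences of 0.71 and 0.81, and Maml2, a Notch co-activator, at 5.10, 7.71, 4.94 and 9.06. Both passed the threshold in no other cluster, but were above 0 in both pairs in 10 and 11 others. Of the 18 Notch genes in the table, 10 were compared, 2 were counted as higher and none as lower, beside the same shares of all genes. Without the filter, 12 of the Notch genes were above 0 in both pairs and 1 was below, beside the 3285 and 3225 of all 19609 genes.

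Mgat4c, the gene of the widest margin, was higher with AAI. It differed by 0.97 and 1.14, and both AAI values, 26.3 and 24.0, were above the uninjured values of 12.9 and 10.3. Sim1, a transcription factor of distal segments, was at 7.11, 11.08, 6.01 and 9.38. Calb1, the calcium-binding protein of the connecting tubule, was at 2.32, 4.12, 1.80 and 3.47 in principal cells, differences of 0.62 and 0.67, whereas in the connecting tubule it differed by -0.95 and -0.12. Summed connecting tubule markers, mostly Slc8a1, were at 19.8, 25.8, 17.7 and 29.0 in the same principal cell columns, and their part in the Calb1 difference was not tested. Kcnc2, a voltage-gated potassium channel, was at 6.61, 12.6, 3.88 and 6.74.

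The largest differences included genes with no link to the lists. Zfp981, a zinc finger gene, was at 0.260, 7.28, 0.0559 and 3.77, and passed the threshold in 10 other clusters. Apobec3, a cytidine deaminase that restricts retroviruses, was at 0.0774, 3.99, 0.481 and 2.90, and Rap1gap, which switches off the small GTPase Rap1, at 0.113, 3.29, 0 and 0.926. Chd9, a chromatin remodeler, was at 1.86, 17.1, 4.09 and 11.13 and passed the threshold in 20 other clusters. With 1 mouse of mixed background per condition, AAI and inherited differences between the mice cannot be told apart for any of these. Of the signaling genes, Stat3 differed by 0.67 and 1.13, its co-receptor chain Il6st by 0.67 and 0.68, and Nfkbiz, an atypical NF-kB inhibitor, by 0.54 and 1.06. Bhlhe40, a circadian and stress repressor, differed by 0.79 and 1.18. It was the only higher gene of 19 clock genes in the table, 10 of which were compared, with none lower. Over all genes compared, 1.17% were higher and 1.32% lower. The rest of the 15 largest higher differences were Gm42031, Gm26542, Meis2, Unc5c and Dock10, from 0.74 to 0.96 in the smaller of the 2 pairs. Of the 48 higher genes, 12 were counted in no other cluster and 8 in at least 10 others.

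**Figure D3:**
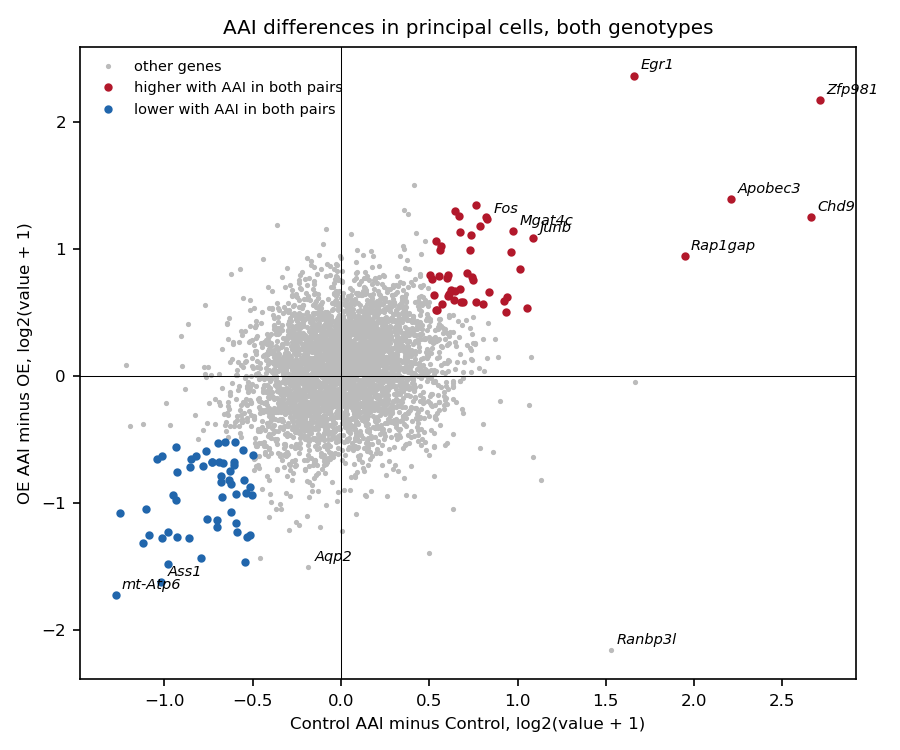
The scatter plots the AAI difference in the Control pair (x axis) against the OE pair (y axis), in log2(value + 1), 1 point per gene compared in principal cells. The 48 red genes are at least 0.5 in both pairs and the 54 blue genes at most -0.5, and Ranbp3l lies far out in the quadrant of opposite signs.

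**Figure D4:**
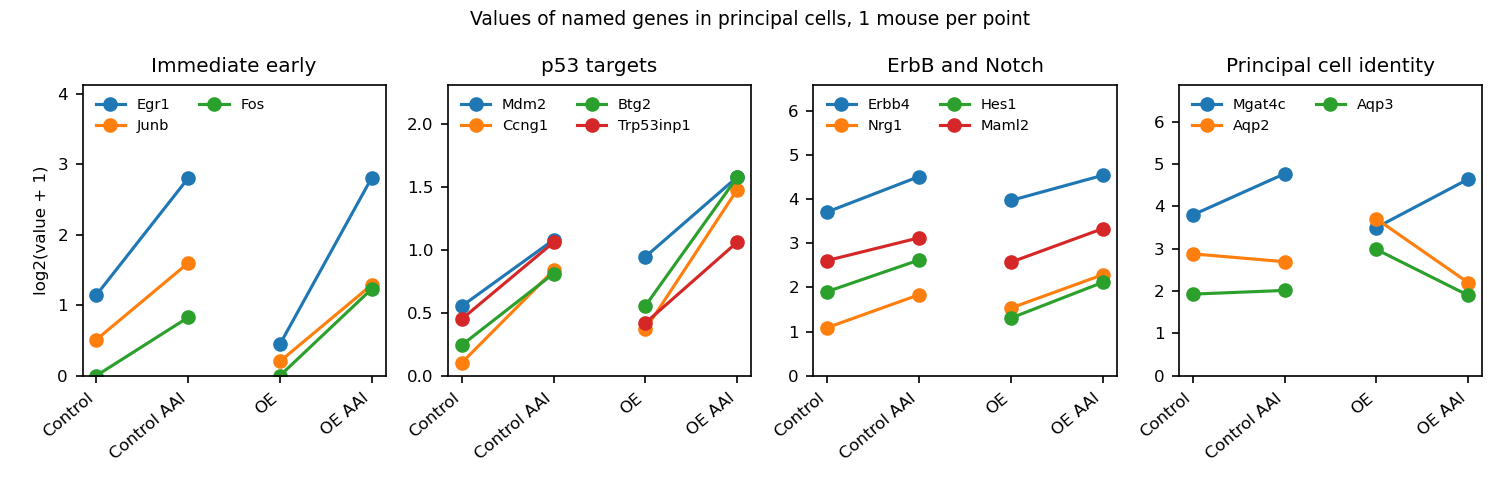
The 4 panels show log2(value + 1) on the y axis for the 4 mice on the x axis, with lines joining the uninjured and the AAI mouse of a genotype. Egr1, Junb and Fos, the p53 targets, and Erbb4, Nrg1, Hes1 and Maml2 are higher with AAI in both genotypes, and Aqp2 and Aqp3 differ by -1.51 and -1.08 in the OE pair but by -0.19 and 0.09 in the Control pair.

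Mitochondrially encoded genes accounted for 8 of the 54, and none of the 13 was higher. Over all genes compared, 1.32% were lower and 1.17% higher. mt-Atp6, a subunit of ATP synthase, was at 38.6, 15.4, 56.8 and 16.5 counts per 10000, differences of -1.28 and -1.73, and mt-Co3, a subunit of cytochrome oxidase, at 68.6, 31.8, 95.02 and 39.2. The 13 genes made up 2.39%, 1.20%, 3.47% and 1.57% of all counts, so both AAI mice were below both uninjured mice. Medians of the 11 genes compared were -0.69 and -1.08, and in the connecting tubule they were -0.59 and -0.93. mt-Atp6 passed the threshold in 20 other clusters. Nuclei were sequenced, and the place of these transcripts was not measured. Of the 91 nuclear genes of oxidative phosphorylation, 1 was lower (Atp5k) and none was higher, with medians of -0.10 and -0.32, and of the 82 cytosolic ribosomal proteins none was counted, with medians of 0.01 and -0.30.

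Proximal tubule genes were the other main group. Of the 10 proximal tubule markers, 4 were lower (Slc34a1, Kap, Keg1 and Acsm2) and none was higher, and medians were -0.59 and -0.57. The shares over all genes compared were 1.32% lower and 1.17% higher. Slc34a1, the phosphate cotransporter of the proximal tubule, was at 13.004, 7.76, 11.6 and 6.07. Ass1, of arginine synthesis, was at 2.76, 0.857, 3.02 and 0.306, and G6pc, of glucose release, at 2.44, 0.797, 1.67 and 0.354. Both are known for the proximal tubule. Of the 54 lower genes, 29 (53.7%) had a higher mean level in the 5 normal proximal tubule clusters than in principal cells in the uninjured mice, against 39.6% of all genes compared and 35.4% of the 48 higher genes. The summed proximal tubule markers given above moved with these genes, and their part in the result was not tested. Without mitochondrially encoded genes and genes higher in the proximal tubule, 17 lower and 31 higher genes remained. The 17 were not free of proximal tubule transcripts. Kap was among them, as its mean of 70.4 in the proximal tubule clusters was below its uninjured principal cell values of 77.4 and 103. Inmt, at 1.69 against 1.65 and 1.78, was among them too. Of the 54 lower genes, 24 also passed the threshold in at least 10 other clusters and 6 in none. The 15 largest also included mt-Cytb, mt-Nd4, mt-Co2, Nat8f1, Inmt, Ndrg1, Ubb and Akr1c21, of which Ndrg1 passed the threshold in all 22 other clusters.

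Some lower genes did not have a higher level in the proximal tubule clusters than in principal cells. Cdh16, the kidney-specific cadherin, had its highest mean of all clusters in principal cells and was at 3.99, 2.49, 5.72 and 2.67, differences of -0.52 and -0.87. Fxyd2 was at 5.29, 2.87, 7.82 and 2.86. Its proximal tubule level without AAI, 5.92, lay between its uninjured principal cell values, and it passed the threshold in 8 other clusters. Abr, a regulator of small GTPases, was at 4.51, 1.57, 2.69 and 0.788. Both AAI values were below both uninjured values for these 3 genes. Cdh16 was the only gene of the 20 claudin and junction genes to be counted, and 12 of the 20 were compared. None of the 26 tubular injury genes in the table was counted, but only 4 were compared. Havcr1 was at 0 in all 4 columns, and Lcn2 was at 0, 0.0187, 0 and 0.0580. None of the 20 heat shock, 19 listed potassium channel or 20 cilium genes was counted (Kcnc2 is not in that potassium channel list). The 10 osmotic response genes gave none either, except that Ranbp3l differed in opposite directions. Only 10 heat shock, 5 potassium channel, 10 cilium and 5 osmotic response genes were compared. Over all genes compared, 1.17% were higher and 1.32% lower, so lists this short cannot show a lack of response.

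Gene length differed between these groups as a description. By genomic span, 61.5% of the 52 lower genes with an annotated span were under 30 kb, against 27.5% of all genes compared and 31.3% of the 48 higher genes. Of the higher genes 47.9% were over 100 kb, against 29.6% of all. The 8 mitochondrially encoded genes were among the short lower genes.

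**Figure D5:**
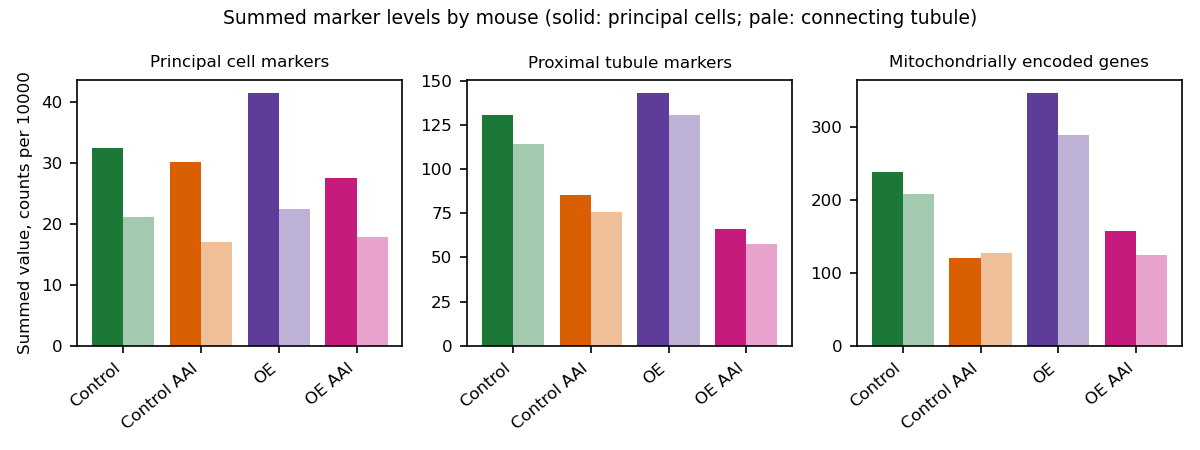
The bars, which start at 0, give summed values in counts per 10000 for 3 gene lists in each mouse, solid for principal cells and pale for the connecting tubule. Principal cell markers are at 27.5 to 41.5 in principal cells, proximal tubule markers are 66.2 and 85.5 in the AAI mice against 131 and 143, and mitochondrially encoded genes are lower in both AAI mice in both clusters.

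The genotype comparison asked what the human KLF6 transgene changed in principal cells. The table had no row for the human transgene, so its level could not be checked here, and mouse Klf6 differed by -0.16 without AAI and was at 1.01 in the Control AAI mouse and 1.00 in the OE AAI mouse. Of 4000 genes compared, 12 were higher in both OE mice (0.300%) and 24 were lower (0.600%), while 20 differed by at least 0.5 in opposite directions. The count of opposite differences was thus of the same order as the counts of concordant ones. Medians over all genes compared were -0.07 and -0.02. In the other 22 clusters the shares ran from 0.0259% to 5.62% higher and from 0.0259% to 7.05% lower. The largest shares were in LH-AL-3, an ascending limb cluster with 60.5% to 63.4% of genes at 0.

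Maf, a transcription factor, showed the largest difference. It was at 1.63, 1.44, 4.93 and 6.21 counts per 10000, so both OE mice were above both Control mice, with differences of 1.17 and 1.56. Maf also passed the threshold in 4 other clusters, among them the connecting tubule, with 0.72 and 1.10. Pck1, the gluconeogenic enzyme of the proximal tubule, was at 1.54, 1.07, 4.84 and 2.58, and it passed the threshold in 17 other clusters. Alcam, an adhesion molecule, was at 0.718, 0.574, 1.80 and 2.91, and Kcnip4, a potassium channel-interacting protein, at 0, 0.0878, 0.616 and 1.06. The connecting tubule marker Klk1, tissue kallikrein, was at 1.21, 1.43, 2.94 and 2.80. Spink1, Rnf157, mt-Nd4, Gm42418, Cdkl3, Tacc2 and mt-Nd2 completed the 12. In each of them except mt-Nd4 and Spink1 both OE values were above both Control values, which is partly built in, as they were picked for a difference in both pairs.

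The lower genes were led by Atp2b2, a plasma membrane calcium pump, at 3.50, 3.76, 1.22 and 1.63. Sdk1, an adhesion molecule known from the retina, was at 8.19, 12.5, 2.85 and 6.64, and Ntn4, a netrin of basement membranes, at 8.81, 7.83, 4.87 and 4.11. Fanca, of the Fanconi anemia repair pathway, was at 3.75, 4.55, 1.51 and 2.73. Its smallest margin over the other clusters was 0.61, below the threshold of 1. In all 4 genes both OE values were below both Control values. Hes1 was lower by 0.60 and 0.51 in size, so it was lower with OE and higher with AAI. Of the 10 largest, Them7, Myo3b, Kcnc2, Xrcc5, Lrp2 and Klf12 were the others. Sdk1, Kcnc2 and Hes1 were lower with OE and higher with AAI, mt-Nd4 and Spink1 the reverse, and Abr was lower in both comparisons, which share their mice. Of the 24 lower genes, 19 were counted in no other cluster, and 16 spanned over 100 kb (66.7%, against 30.2% of all genes compared).

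None of the principal cell markers, the water transport genes or the sodium channel genes was counted, with marker medians of 0.38 and -0.10. Of these lists, 7, 22 and 27 genes were compared. Aqp2 was higher by 0.83 in OE without AAI and differed by -0.50 with AAI, and Aqp3 by 1.06 and -0.12. Of the 13 mitochondrially encoded genes 2 were counted as higher and none as lower, beside 0.300% and 0.600% of all genes compared. The 11 compared had medians of 0.52 and 0.29, beside -0.07 and -0.02 over all genes, and 9 of them were above 0 in both pairs and none below. Of the 52 nuclear oxidative phosphorylation genes compared, with medians of 0.26 and 0.06, 27 were above 0 in both pairs and 4 below, beside 752 and 1284 of all 4000 genes compared. No p53 target, immediate early gene, tubular injury gene, heat shock protein, ribosomal protein or nuclear oxidative phosphorylation gene was counted in either direction. Only 4 p53 targets, 5 immediate early genes, 4 injury genes, 9 heat shock and 30 ribosomal proteins were compared. With 0.300% and 0.600% of all genes counted, lists this short cannot show a lack of difference. Of the 10 proximal tubule markers 1 was lower, Lrp2, the endocytic receptor megalin, at 5.40, 2.91, 2.42 and 1.62.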

How the data were processed

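The deposited table holds 1 signal value per gene, cluster and mouse. Per the study's methods and the submitters' notes, Cell Ranger was used with an mm10 pre-mRNA reference, and the authors clustered the nuclei of all 4 mice together with Seurat, and averaged counts scaled per nucleus. The deposited signal is linear, and each of the 92 columns sums to 10000. Doublet removal is not described for these nuclei. All samples were processed as 1 technical batch. Numbers of nuclei and depth per column are not given, so no interval could be computed.

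Of 19632 gene rows, 23 with date-like names were left out, leaving 19609. Cluster names followed the sheet order of the study's marker table, with cluster 13 checked on its markers. Differences were taken with a pseudocount of 1 among genes whose larger value was at least 0.5 in each mouse or pair. A gene was counted at 1 between clusters in 4 of 4 mice, and at 0.5 between conditions in both pairs. The genes named are members of the lists and cell type markers, the 20 widest margins over the other clusters, the 15 widest differences from the connecting tubule in each direction, and the 15 (AAI) or 10 (genotype) largest in each direction. Stat3, Il6st, Nfkbiz, Egfr and Sox5 fall outside this rule and were picked with their values known. A few genes that the rule names are not reported here. The cluster and the lists were chosen with earlier results of these data known. Spans came from GENCODE M21 on GRCm38 and promoters from RefSeq. Scripts were tested on simulated data and run with Python 3.11.15, numpy 2.4.6, pandas 2.3.3 and matplotlib 3.10.9. Alternatives were other pseudocounts, filters, thresholds and centring, single pairs, leaving out mitochondrially encoded genes and, chosen after seeing the data, leaving out genes higher in the proximal tubule.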

Additional observations from a re-analysis of the deposited data

Results flagged for a closer look

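3 genes of the lists differed by at least 0.5 in opposite directions in the 2 pairs of mice, and none of these differences was tested. Ranbp3l, a Ran-binding protein placed in the osmotic response list, was at 2.10, 7.94, 10.15 and 1.49 counts per 10000 in Control, Control AAI, OE and OE AAI. It differed by 1.53 with AAI in the Control pair and by -2.16 in the OE pair, and by 1.85 and -1.84 between genotypes without and with AAI. Egf, whose highest level is in the thick ascending limb, was lower by -0.84 in OE without AAI and higher by 0.71 with AAI. Rplp0, a ribosomal protein, was higher by 0.83 in OE without AAI and lower by -0.53 with AAI. Over all genes, 17 differed in opposite directions with AAI and 20 with genotype.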

How the results depend on the processing

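With 1 mouse per condition and an unknown number of nuclei per column, the error of a call was not estimated. No paired analysis was possible because the groups share only 1 replicate number and no result came from a test. Each comparison was made within its 2 pairs of mice, and no additive fit over the 4 mice was run. Of the 130 alternative values for counts and list medians, 68 stayed within 1.5 times the count or within the spread of the 2 pairs, and 62 moved. All 188 alternative values for single named genes, from a pseudocount of 0.1 and from leaving out mitochondrially encoded genes, kept their direction and stayed at least 0.5 in size. This is no check of the calls. The genes were picked for differences of at least 0.5, and a smaller pseudocount can only widen a difference. Mitochondrially encoded genes made up 1.20% to 3.47% of counts, so leaving them out could change little. With a pseudocount of 0.1, genes above every other cluster numbered 18, genes higher and lower than in the connecting tubule 92 and 69, higher and lower with AAI 236 and 248, and higher and lower with OE 92 and 183. With a minimum value of 2 these were 5 above every cluster, 30 and 34 with AAI, and 7 and 13 with OE. A threshold of 0.5 between clusters gave 21 above every cluster and 119 and 86 against the connecting tubule, and a threshold of 2 gave 1, 3 and 3. Means over the 4 mice gave 13 genes above every cluster. A threshold of 0.2 between conditions gave 467 and 349 with AAI and 170 and 376 with OE, and a threshold of 1 gave 5, 7, 1 and 0. The Control pair alone gave 226 and 197 with AAI and the OE pair alone 430 and 374. Genotype gave 220 and 311 without AAI and 149 and 207 with AAI. Centring on the median gave 14 lower genes with OE and 14 higher, against 24 and 12 without it. It gave 42 higher and 62 lower genes with AAI. Leaving out genes higher in the proximal tubule and mitochondrially encoded genes, chosen after seeing the data, gave 31 and 17 with AAI and 15 lower with OE. Medians of proximal tubule markers with AAI were -0.78 and -0.82 at a pseudocount of 0.1, -0.68 and -0.59 at a minimum value of 2, -0.61 and -0.60 without mitochondrially encoded genes, and -0.64 in the OE pair when centred. Immediate early medians were 1.12 and 1.45 at a pseudocount of 0.1, 0.091 and 0.16 without a filter, and 1.66 and 2.37 at a minimum value of 2. Medians of p53 targets were 1.34 and 1.23 at a pseudocount of 0.1, 0.13 and 0.11 without a filter, and 0.54 in the OE pair when centred. Mitochondrially encoded medians without a filter were -0.79 with AAI in the OE pair and 0.12 for genotype with AAI. Genotype medians without AAI at a pseudocount of 0.1 were 0.52 for ribosomal proteins and 0.45 for nuclear oxidative phosphorylation genes, and the latter was 0.24 with AAI at a minimum value of 2. The cause of these shifts was not tested.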
